A study of Rattus norvegicus with 9 samples.

Results

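The core circadian clock genes Arntl (also called Bmal1), Clock, Npas2, Per1, Per2, Per3, Cry1, Nr1d1, Nr1d2 and Dbp, 10 in all, were followed in the livers of diabetic rats that had or had not been stressed. They were chosen by name, and the array annotation assigned them 17 of the 31042 probe sets and 10 of the 14217 genes on the array. A filter on low signals kept 14 of the 17 probe sets, with at least 1 for each gene, and left out 1 of Clock, 1 of Per2 and 1 of Per3. Liver RNA of 9 male Goto-Kakizaki (GK) rats, an inbred strain that becomes diabetic without treatment, was measured on Affymetrix arrays with 1 array per rat. The rats were bought at 5 weeks of age and kept for 7 weeks until diabetes had emerged. Control 1–3 (undepression in the labels) were then fed normally for 8 weeks. CUMS 1–6 lived alone in cages through 8 weeks of chronic unpredicted mild stress (CUMS), with a different stress from day to day. Among the stresses was a day with light and dark exchanged, and each stress was used several times in random order. The labels call CUMS 1–3 Major Depression and CUMS 4–6 Mild Depression. Every rat was given repaglinide, an oral drug that lowers blood glucose, before the liver was taken, and the hour at which the livers were taken is not given in the sources used here. The arrays allow the question of whether the liver clock genes differ between stressed and unstressed rats, and how far they differ from rat to rat.

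The clock of mammalian cells is a loop of transcription. BMAL1, the protein of Arntl, pairs with CLOCK or NPAS2 and switches on Per, Cry, Nr1d1, Nr1d2 and Dbp through DNA elements called E-boxes, after which PER and CRY proteins block the pair. NR1D1 and NR1D2 (REV-ERB alpha and beta) repress Arntl, Clock and Npas2 through ROR elements, and DBP acts on further genes, Per genes among them, through D-boxes, so that in rodent liver the Arntl side and the Dbp and Per side peak at opposite times of day.

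The promoters of Arntl, Per2 and Nr1d1 are shown because they carry such elements close to the start of transcription. RefSeq promoters of build GRCr8 (250 bases before and 50 after each annotated start) were at hand for 9 of the 10 genes, all but Cry1. They were searched on both strands for the E-box CACGTG, its variant CACGTT, the D-box TTATGTAA and the ROR element, and 3 genes held a match. Each sequence holds the 250 bases before the start, 5′ to 3′ on the strand of the gene, with the matching letters in capitals.
Arntl, chr1:176766078-176766327, plus strand: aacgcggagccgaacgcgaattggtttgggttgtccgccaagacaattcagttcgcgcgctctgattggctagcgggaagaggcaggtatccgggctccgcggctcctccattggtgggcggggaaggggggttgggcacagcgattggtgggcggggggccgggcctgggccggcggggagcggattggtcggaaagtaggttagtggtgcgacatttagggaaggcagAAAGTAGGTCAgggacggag
Per2, chr9:99496994-99497243, minus strand: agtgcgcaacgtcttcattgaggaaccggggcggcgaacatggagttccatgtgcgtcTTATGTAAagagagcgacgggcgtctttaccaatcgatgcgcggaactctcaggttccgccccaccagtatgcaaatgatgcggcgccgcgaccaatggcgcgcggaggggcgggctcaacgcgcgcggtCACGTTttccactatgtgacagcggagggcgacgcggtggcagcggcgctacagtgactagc
Nr1d1, the second of 2 annotated starts, chr10:84229455-84229704, minus strand: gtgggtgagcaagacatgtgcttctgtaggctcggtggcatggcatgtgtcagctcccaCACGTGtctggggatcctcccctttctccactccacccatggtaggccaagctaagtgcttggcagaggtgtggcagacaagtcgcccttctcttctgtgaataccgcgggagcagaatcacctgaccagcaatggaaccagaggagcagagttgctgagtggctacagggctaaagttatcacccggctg
In Arntl a ROR element, AAAGTAGGTCA, began 20 bases before the start. In Per2 the E-box variant CACGTT began 62 bases and the D-box TTATGTAA 192 bases before the start. In Nr1d1 the E-box CACGTG began 191 bases before the second start, and before the first start, which is not printed, the E-box variant lay on the opposite strand at 174 bases. No match overlapped another. Of 33469 rat promoters of the same length, 6.42% held CACGTG, 4.83% CACGTT, 0.893% TTATGTAA and 0.356% the ROR element. These are matches of letters, and binding was not measured.

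The deposited values are signal intensities on a linear scale, and signals of different probe sets are not set against each other here. The 3 groups were fitted together with limma on log2 signals, p-values were adjusted after Benjamini and Hochberg over the 18625 probe sets kept, and a probe set was called at an adjusted p under 0.05. The p-values measure the spread between these rats, 3 in each group. The number of arrays limits the precision. Each gene is described by its brightest probe set. In whole liver, fewer cells of a type and less RNA per cell cannot be told apart. The median signal of an array lay between 107 and 133. Control 3 stood apart, with a median correlation with the other arrays of 0.951 against 0.965 to 0.972 for the others, and with a summed signal of 11 stellate cell and fibroblast markers of 34446 against 4824 to 8273 in the other 8 rats. For beta-actin the signal at the 3′ end divided by that at the 5′ end, a measure that grows as RNA breaks down, was 5.23 in CUMS 2 and 4.96 in CUMS 4 and lay between 2.51 and 3.73 in the other rats. The summed signal of the 9 hepatocyte markers lay between 175732 and 220299, and none of these markers was at the floor in any rat, so the liver label held.

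None of the 10 clock genes passed the test in any of the 4 comparisons between groups, and neither did any other of the 10403 genes tested. By limma 0 of 18625 probe sets (0%) were called in CUMS 1–3 against control, in CUMS 4–6 against control, in all CUMS rats against control and in CUMS 1–3 against CUMS 4–6. At an unadjusted p under 0.05, 0 of the 10 genes passed in CUMS 1–3 against control, beside 6.76% of all probe sets. In CUMS 4–6 against control 1 gene passed at that level, Arntl, beside 6.28% of all probe sets. With all 6 CUMS rats against control 0 passed, beside 7.93%, and in CUMS 1–3 against CUMS 4–6 1 passed, Npas2, beside 2.85%. The test that the study's methods name, applied to the same log2 signals, called 0 of the 10 genes in each comparison, beside 0.00537% of all probe sets in CUMS 1–3 against control and 0% in the others. By it 0 of the 10 reached an unadjusted p under 0.05, beside 5.25%, 5.33%, 7.7% and 4.08% of all probe sets in the same order of comparisons. Of the 14 kept clock probe sets 0 lay wholly above or wholly below control in CUMS 1–3, beside 11.6% of all probe sets, and 0 with all CUMS rats, beside 3.68%. The same 3 control rats stand in every comparison with control.

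**Figure D1:**
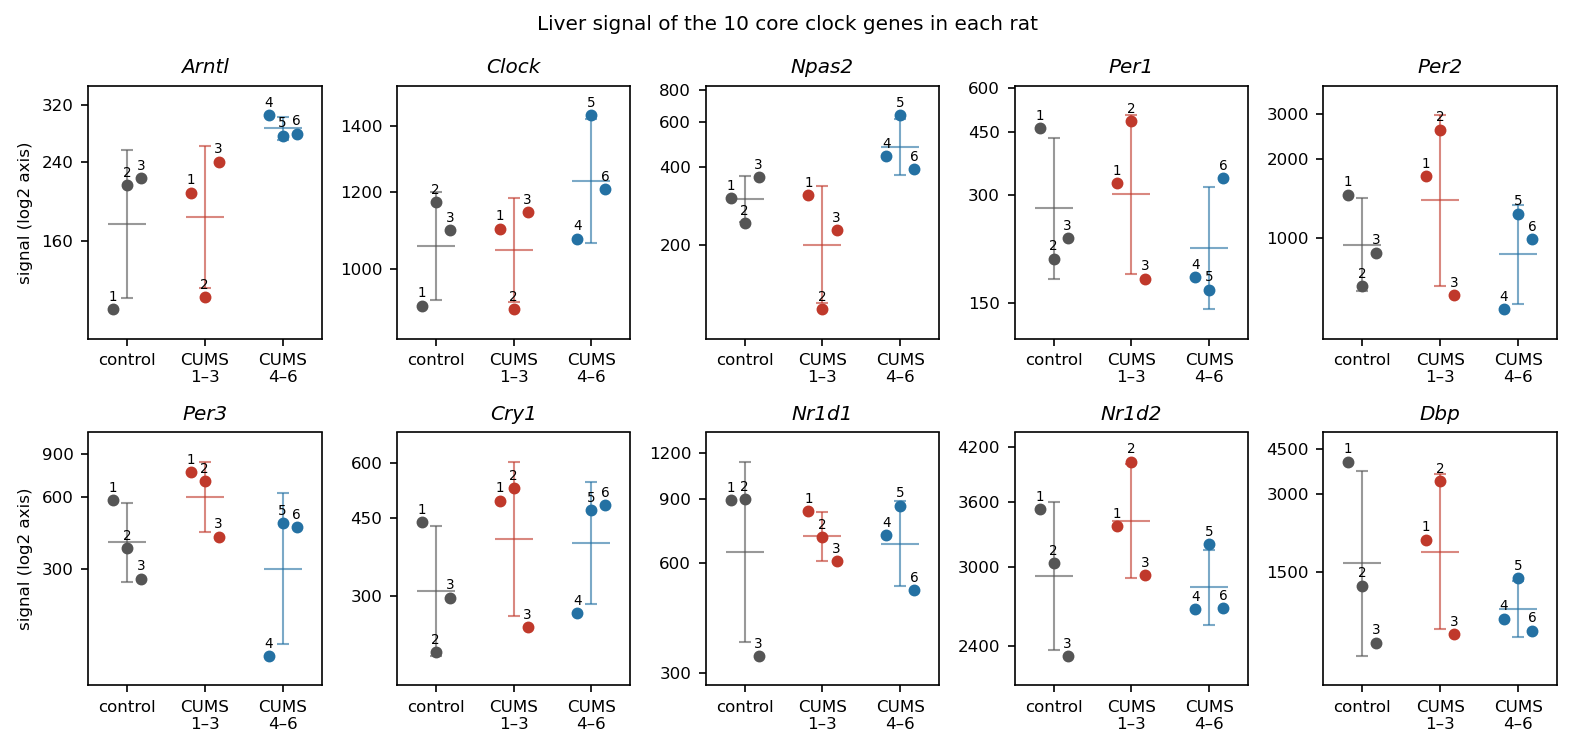
Signal of each core clock gene (brightest probe set, log2 axis, with its own range in each panel) in control 1–3 (grey), CUMS 1–3 (red, Major Depression in the labels) and CUMS 4–6 (blue, Mild Depression); points are single rats with their numbers, horizontal lines are means and bars 1 SD, both taken on the log2 scale, with 3 rats a group. Arntl and Npas2 of CUMS 4–6 lie above all other rats, while Dbp and Per2 spread widely inside the control group and inside CUMS 1–3.

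Arntl and Npas2, which encode partners on the activating side of the loop, had their highest signals in CUMS 4–6. The Arntl signal (probe set 1370510_a_at) was 113, 213 and 221 in control 1–3, 205, 120.2 and 239.9 in CUMS 1–3, and 304, 274 and 276 in CUMS 4–6. Control 1 and CUMS 2 were low, and the 3 rats of CUMS 4–6 lay above the other 6. The group means with SD (n = 3 each) were 182 ± 60.1 for the controls, 188 ± 61.5 for CUMS 1–3 and 285 ± 16.7 for CUMS 4–6. Against control, Arntl of CUMS 4–6 stood 1.63-fold higher (log2 difference 0.71, SE 0.31, unadjusted p = 0.0436 and adjusted p = 0.779 from limma), and the difference did not pass. Without control 1, the lowest rat, the log2 difference was 0.39. In CUMS 1–3 it was 0.051 (SE 0.31, 95% interval −0.63 to 0.73), with controls and stressed rats overlapping.

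The Npas2 signal (1383439_at) was 304, 243 and 367 in control 1–3, 312, 112 and 228 in CUMS 1–3, and 443, 639.6 and 394 in CUMS 4–6. NPAS2 can take the place of CLOCK beside BMAL1. The rat with the lowest signal was CUMS 2 and the rat with the highest CUMS 5, and CUMS 4–6 again lay above the other 6 rats. Group means were 305 ± 62.0 (SD, n = 3), 218 ± 101 (SD, n = 3) and 492 ± 130.0 (SD, n = 3). Between the stressed groups, the log2 difference of CUMS 1–3 minus CUMS 4–6 was −1.27 (SE 0.34, unadjusted p = 0.00353), rank 18 by p among the 18625 probe sets, and its adjusted p of 0.99955 from limma did not pass. Without CUMS 2, which had a raised actin ratio, that difference was −0.85. Against control it was 0.68 (SE 0.34) in CUMS 4–6 and −0.59 (SE 0.34) in CUMS 1–3, with adjusted p = 0.782 and 0.778 from limma, and the latter difference was −0.17 without CUMS 2. Of the 14 kept clock probe sets, those of Arntl and Npas2 were the 2 that lay wholly above control in CUMS 4–6, beside 5.34% of all probe sets. The same 2 lay wholly lower in CUMS 1–3 than in CUMS 4–6, beside 4.37% of all probe sets.

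Clock, the third gene of the activating side, differed least between rats. Its brightest probe set, 1390199_at, read 917, 1171 and 1096 in control 1–3, 1099.6, 909 and 1144 in CUMS 1–3, and 1074, 1438 and 1207 in CUMS 4–6. The groups overlapped, and control 1 and CUMS 2 were once more the lowest rats. The log2 difference from control was −0.014 (SE 0.15, 95% interval −0.35 to 0.32) in CUMS 1–3 and 0.22 (SE 0.15, 95% interval −0.11 to 0.56) in CUMS 4–6. Of the 3 other Clock probe sets, 1389456_at followed the brightest over the 9 rats (r = 0.79), 1380098_at did so less closely (r = 0.50), and the dim 1369168_a_at, left out by the filter, had r = 0.10 with signals from 3.22 to 75.6.

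The Per genes, whose proteins hold back the BMAL1 complex, varied several-fold inside a group. The Per2 signal (1368303_at) was 1463, 652 and 876 in control 1–3, 1721, 2599 and 602 in CUMS 1–3, and 531, 1236 and 988 in CUMS 4–6. CUMS 2 was highest and CUMS 4 lowest, a 4.90-fold range, and these rats had the 2 highest actin ratios. The dim 1378560_at of Per2 was left out by the filter (signals 18.1 to 140, r = −0.042 with the brighter probe set). Rats of all 3 groups overlapped, and the log2 difference from control was 0.56 (SE 0.50, 95% interval −0.54 to 1.66) in CUMS 1–3 and −0.12 (SE 0.50, 95% interval −1.22 to 0.98) in CUMS 4–6. The first of these was 0.11 without CUMS 2.

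The Per1 signal (1374855_at) was 462, 199 and 228 in control 1–3, 324, 483 and 175 in CUMS 1–3, and 177, 163 and 335 in CUMS 4–6. Per1 and Per2 are both also known to respond quickly to glucocorticoids. As with Per2, control 1 and CUMS 2 were high and CUMS 3 and CUMS 4 low, with CUMS 5 the lowest, and the log2 differences from control were 0.13 (SE 0.42) in CUMS 1–3 and −0.37 (SE 0.42) in CUMS 4–6.

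The Per3 signal (1378745_at) was 581, 366 and 275 in control 1–3, 757, 695 and 409.7 in CUMS 1–3, and 131, 464 and 449 in CUMS 4–6. CUMS 4 stood far below the other stressed rats, and the groups overlapped in each comparison. CUMS 1–3 minus CUMS 4–6 gave a log2 difference of 0.99 (SE 0.46, 95% interval −0.028 to 2.01, adjusted p = 0.99955 from limma), which became 0.39 without CUMS 4. The dim other Per3 probe set, 1388239_at, which the filter left untested, read 79.0 to 87.2 in the controls and 28.0 to 55.5 in the 6 CUMS rats, without overlap. Of the 18625 kept probe sets, 2.15% lay wholly lower in the CUMS rats, and the share among probe sets as dim is not given. This probe set did not follow the brighter one (r = −0.24 over the 9 rats). For CUMS 1–3 minus control the brighter probe set gave a log2 difference of 0.63 and the mean of both gave −0.30, so the direction for Per3 depended on the probe set.

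Cry1, the partner of the PER proteins in repression, read (probe set 1392640_at) 441, 224 and 298 in control 1–3, 493, 526 and 255 in CUMS 1–3, and 274, 469.8 and 482 in CUMS 4–6. Both stressed groups held 2 rats above every control and 1 rat inside the control range. The log2 differences from control were close to each other, 0.39 (SE 0.34) in CUMS 1–3 and 0.36 (SE 0.34) in CUMS 4–6, and 0.37 (SE 0.29, 95% interval −0.27 to 1.02, adjusted p = 0.802 from limma) with all 6 rats. Without control 2, the lowest control, they were 0.16, 0.13 and 0.14, and without CUMS 3 the first was 0.72.

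The REV-ERB genes, which encode the repressors of Arntl, showed small differences between groups. The Nr1d1 signal (1370816_at) was 893, 896 and 334 in control 1–3, 832, 706 and 608 in CUMS 1–3, and 716, 861 and 506 in CUMS 4–6. The low control was control 3, the rat with the high stellate markers. Group means of Nr1d1 were 708 ± 324 (SD, n = 3), 715 ± 112 (SD, n = 3) and 694 ± 179 (SD, n = 3). The log2 difference from control was 0.14 (SE 0.35) in CUMS 1–3 and 0.074 (SE 0.35) in CUMS 4–6, and without control 3 these were −0.33 and −0.40.

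The Nr1d2 signal (1390430_at) was 3522, 3031 and 2336 in control 1–3, 3359, 4027 and 2928 in CUMS 1–3, and 2661, 3195 and 2669.8 in CUMS 4–6. The gene varied little, with 1.72-fold between the lowest rat, control 3, and the highest, CUMS 2. Its 2 other probe sets, 1370541_at and 1370540_at, followed the first (r = 0.90 and 0.77 over the 9 rats). CUMS 1–3 stood 0.22 (SE 0.17, 95% interval −0.14 to 0.59) above control on the log2 scale and CUMS 4–6 at −0.045 (SE 0.17, 95% interval −0.41 to 0.32).

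Dbp, a transcription factor of the PAR bZIP family and a direct output of the loop, differed most between rats of the same group. Its signal (1387874_at) was 4022, 1324 and 793 in control 1–3, 1998, 3376 and 857 in CUMS 1–3, and 983, 1419 and 885 in CUMS 4–6. The highest and the lowest rat were both controls, control 1 and control 3, and stood 5.07-fold apart. CUMS 3 was nearly as low as control 3. The log2 difference from control was 0.15 (SE 0.57, 95% interval −1.11 to 1.41) in CUMS 1–3 and −0.59 (SE 0.57, 95% interval −1.85 to 0.67) in CUMS 4–6. Without control 1 these became 0.81 and 0.066.

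**Figure D2:**
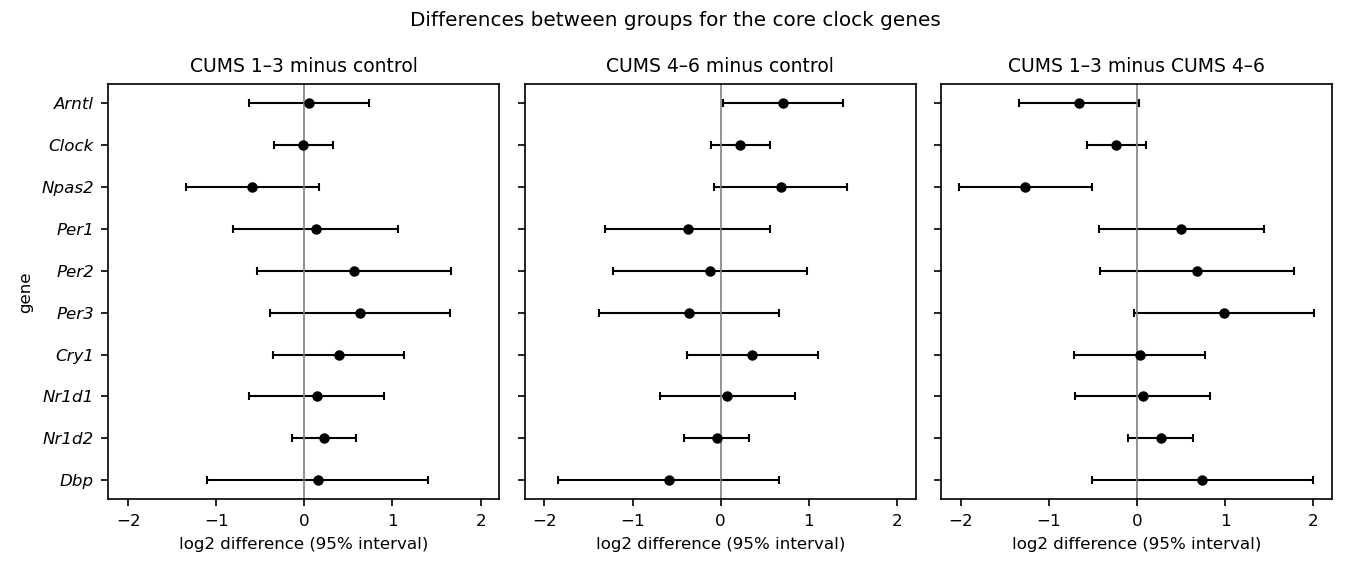
Log2 differences of the 10 core clock genes between groups of 3 rats, with 95% intervals from limma; the panels give CUMS 1–3 minus control, CUMS 4–6 minus control and CUMS 1–3 minus CUMS 4–6. Nearly every interval crosses 0, and those of Arntl in CUMS 4–6 against control (0.024 to 1.39) and of Npas2 between the stressed groups (−2.02 to −0.51) do not, before adjustment for the number of probe sets.

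Over the 10 genes, the median log2 difference was 0.15 in CUMS 1–3 against control, 0.014 in CUMS 4–6 against control, 0.11 with all CUMS rats and 0.17 in CUMS 1–3 minus CUMS 4–6. Over all 10403 genes tested the medians were −0.018, −0.020, −0.018 and −0.0078. Clock genes were higher than control in CUMS 1–3 in 8 of 10 cases, in CUMS 4–6 in 5 of 10, and with all CUMS rats in 8 of 10, with none past the test. Of all 10403 genes tested, 4833, 4784 and 4818 were higher in the same order of comparisons.

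The rats of 1 group differed more in the clock genes than in most genes. Within groups, the SD of the log2 signal was 0.92 for Dbp, 0.80 for Per2, 0.73 for Per3 and 0.66 for Per1. It was 0.54 for Nr1d1, 0.51 for both Npas2 and Cry1, 0.44 for Arntl, 0.24 for Nr1d2 and 0.19 for Clock. The median over the 10 genes was 0.53, and over all 10403 genes 0.22. A larger SD than that of Dbp was found in 125 of the 10403 genes and a larger one than that of Per2 in 225, whereas Clock had 6185 genes above it. The share of the variance that lay between the 3 groups had a median of 22.1% over the clock genes and 22.9% over all genes, with 60.3% for Npas2, 44.7% for Arntl, 15.3% for Dbp and 1.64% for Nr1d1.

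**Figure D3:**
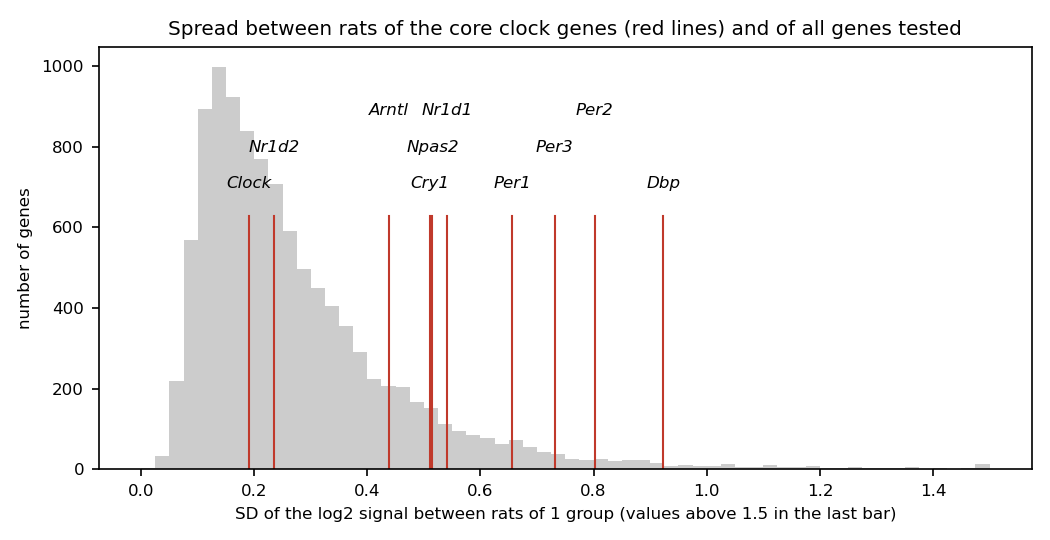
SD of the log2 signal between rats of 1 group for 10403 genes (grey bars, number of genes, values above 1.5 gathered in the last bar) with the 10 core clock genes as red lines. The clock genes run from 0.19 for Clock to 0.92 for Dbp, and 8 of the 10 lie at 0.44 or above, where the bars are low.

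The differences between rats ran across the groups. The 7 genes of the repressing side and output (Per1, Per2, Per3, Cry1, Nr1d1, Nr1d2 and Dbp) were all above their 9-rat mean in control 1, CUMS 1 and CUMS 2. In control 3 and CUMS 3, 0 of the 7 were above it, and in control 2 and CUMS 4, 1 of 7. CUMS 5 had 5 of 7 and CUMS 6 had 3 of 7 above it. The activating genes Arntl, Npas2 and Clock were all below their mean in control 1 and CUMS 2 and all above it in CUMS 5 and CUMS 6, so in CUMS 5 most genes of both sides were high. On the log2 scale, Dbp stood 1.46 above its mean in control 1 and 1.21 above in CUMS 2, while Arntl of the same rats stood at −0.88 and −0.79. High and low rats were found among both stressed and unstressed animals.

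**Figure D4:**
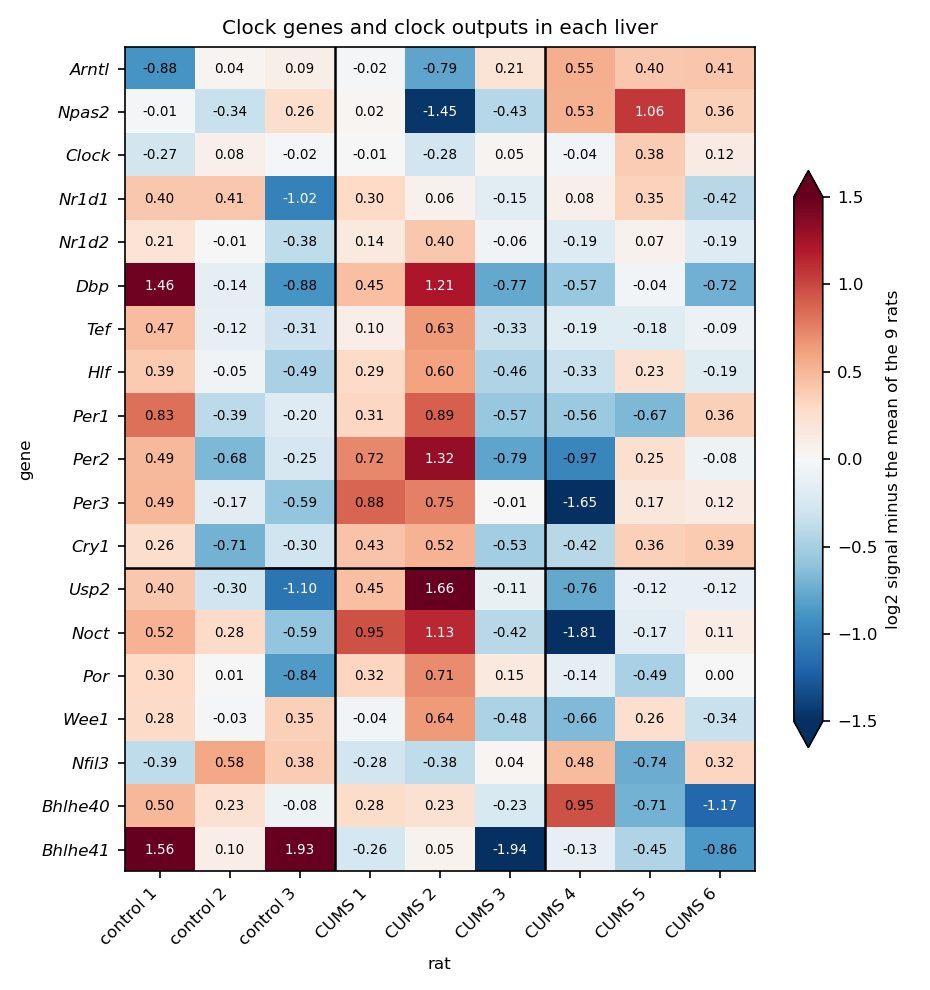
Log2 signal minus the mean of the 9 rats for the 10 core clock genes with Tef and Hlf (above the horizontal line) and for 7 further clock-related genes (below it), 1 column per rat with vertical lines between control 1–3, CUMS 1–3 and CUMS 4–6; red is above and blue below the mean, and colours saturate at 1.5. Control 1 and CUMS 2 are blue for Arntl and red for Dbp (1.46 and 1.21), Tef, Per1 and Per2, and control 3 and CUMS 3 are blue for Dbp (−0.88 and −0.77). The 7 further genes were picked without a set rule. Other listed genes, such as Nampt (r = −0.00040 with Arntl over the 9 rats) and Insig2 (0.70), are not shown.

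Across the 9 rats, each of the 9 other clock genes was set against Arntl on log2 signals, with exact two-sided permutation tests and adjustment over the 9 genes. Dbp ran opposite to Arntl (Pearson r = −0.88, exact permutation p = 0.00527, adjusted p = 0.0314), and so did Per1 (r = −0.81, exact permutation p = 0.00698, adjusted p = 0.0314). Clock ran with Arntl (r = 0.80, exact permutation p = 0.0116, adjusted p = 0.0348). These 3 of 9 passed, but 0 passed after quantile normalization (lowest exact permutation adjusted p = 0.0569) and 0 after centring the arrays on the median (0.0535), an alternative added after the values were seen. For Nr1d2 r was −0.73 (exact permutation adjusted p = 0.0578), for Per2 −0.70 (0.0690), for Npas2 0.67 (0.0734), for Per3 −0.60 (0.108), for Cry1 −0.38 (0.370) and for Nr1d1 −0.26 (0.515). Spearman's rho had the sign of Pearson's r for all 9 genes, for example −0.67 for Dbp, −0.63 for Per1 and 0.53 for Clock, and none passed, the lowest exact permutation adjusted p being 0.114.

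For most genes the relation with Arntl was weaker without control 1 and CUMS 2, the rats farthest from the Arntl median. Leaving both out narrows the range of Arntl, which by itself weakens r, so it cannot show that the relation rested on them. With 1 rat left out at a time, r ran from −0.93 to −0.80 for Dbp, from −0.94 to −0.72 for Per1 and from 0.71 to 0.91 for Clock. Over the other 7 rats r was −0.38 for Dbp, −0.31 for Per1 and 0.30 for Clock, while Npas2 (0.64) and Per3 (−0.55) moved little. The r of Cry1 (0.14) and of Nr1d1 (0.013) changed sign. CUMS 2 had the highest actin ratio of the 9 arrays, 5.23, and also the highest such value for GAPDH, 1.75 where the other arrays had 1.32 to 1.46, while control 1 had 3.66 and 1.33. The part of RNA quality in the correlations was not tested. Leaving out 1 rat at a time, 0 genes passed without control 1, CUMS 1, CUMS 2 or CUMS 3, 2 passed without control 2, CUMS 4 or CUMS 6, 4 passed without control 3, and 5 passed without CUMS 5. With the group means removed, only differences inside the groups remain. The r was then −0.92 for Dbp, −0.83 for Per1, −0.83 for Nr1d2, −0.79 for Per2 and −0.74 for Cry1. For Clock it was 0.68, for Npas2 0.49, for Per3 −0.53 and for Nr1d1 −0.37. No test is given for these values, because those of a group then sum to 0 and cannot be exchanged freely between groups. The mean of the 4 Clock probe sets gave r = −0.13 with Arntl in place of 0.80. That mean takes in the dim 1369168_a_at, which the filter left out and whose signals ran from 3.22 to 75.6. Within single groups the 3 rats are too few for a correlation.

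**Figure D5:**
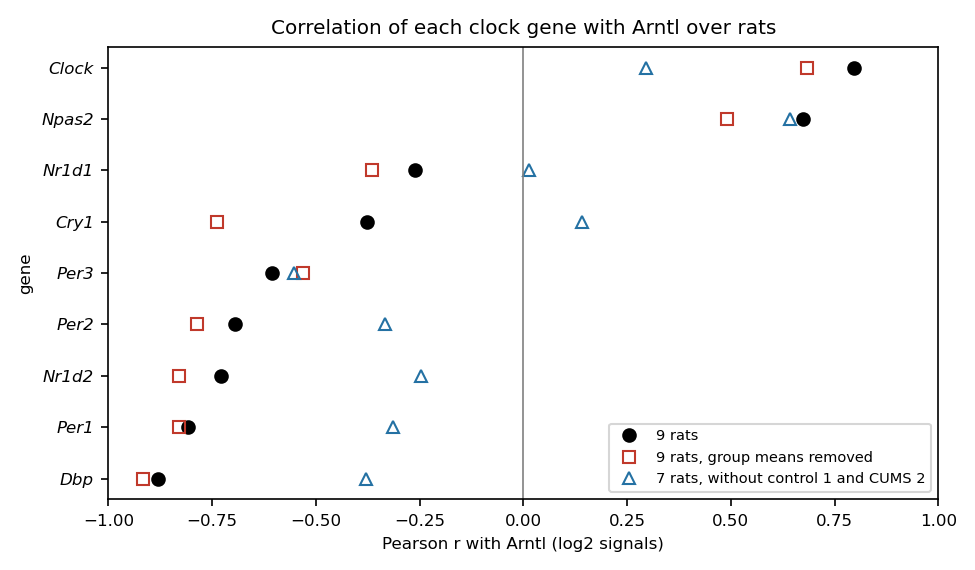
Pearson r of each clock gene with Arntl on log2 signals, over 9 rats (black circles), over 9 rats with group means removed (red squares) and over 7 rats without control 1 and CUMS 2 (blue triangles). Clock and Npas2 lie right of 0 and the Per genes, Nr1d2 and Dbp left of it, and for Dbp r goes from −0.88 to −0.38 without those rats. Cry1 and Nr1d1 lie left of 0 over 9 rats and right of it, at 0.14 and 0.013, over the 7 rats.

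Among 10393 other genes, those most like Arntl over the 9 rats were Rpl4, a ribosomal protein gene (r = 0.96), Lnx2, a ubiquitin ligase gene (0.93), Srrd (0.93), Dnajc12, a co-chaperone gene (0.92), and Pnrc1, a nuclear receptor coregulator gene (0.91). The most opposite were Dohh, an enzyme of hypusine synthesis (−0.93), Cfap20 (−0.93), Pafah1b2 (−0.92), Nat8, an acetyltransferase gene (−0.91), and Pank4 (−0.91). These 10 were picked for their r, and no test is given. The Rpl4 signal differed little, from 10042 in control 1 to 11612 in CUMS 6, whereas Nat8 read 499 in control 1, 619 in CUMS 2 and 159 in CUMS 4. Of those 10393 genes, 20 had a lower r with Arntl than Dbp, 60 a lower one than Per1, and 52 a higher one than Clock.

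Dbp and Nr1d2 went together over the rats. Against Dbp, a comparison added after the values were seen, Nr1d2 had r = 0.90 over the 9 rats (exact permutation adjusted p = 0.00337 over 8 genes) and rho = 0.92 (exact permutation adjusted p = 0.0105), and r = 0.87 without control 1 and CUMS 2. The other repressing genes had r with Dbp of 0.78 for Per2, 0.75 for Per1, 0.64 for Per3, 0.61 for Nr1d1 and 0.57 for Cry1, and none of these passed (lowest exact permutation adjusted p = 0.0522).

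Of 17 further clock components, 13 were on the array and 11 had a kept probe set, and 0 of the 11 passed in any comparison by limma, with at most 1 at an unadjusted p under 0.05 in a comparison by limma or by the study's test. Of all probe sets, 2.85% to 7.93% reached that level in a comparison by limma and 4.08% to 7.7% by the study's test. Bhlhe41 (DEC2), a repressor that competes at E-boxes, had the smallest p. Its signal was 323, 117 and 419 in control 1–3, 91.4, 113 and 28.7 in CUMS 1–3, and 100.4, 80.0 and 60.2 in CUMS 4–6. All 6 CUMS rats lay below all 3 controls, by a narrow margin for control 2, and 5 of the 6 stressed rats lay below the median signal of their array. The log2 difference of all CUMS rats from control was −1.80 (SE 0.49, unadjusted p = 0.00373, adjusted p = 0.467 from limma), beside 2.15% of all probe sets that lay wholly lower in the CUMS rats. For its relative Bhlhe40 (DEC1) the log2 difference of CUMS 4–6 from control was −0.53 (SE 0.43), for Timeless −0.35 (SE 0.25), and for Nfil3 (E4BP4), which competes with DBP at D-boxes, it was −0.40 (SE 0.32) in CUMS 1–3, each with overlapping groups.

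Tef and Hlf, the PAR bZIP relatives of Dbp, were named after their values were seen. The Tef signal was 1238, 824 and 724 in control 1–3, 963, 1389 and 712 in CUMS 1–3, and 787, 792 and 842 in CUMS 4–6. As with Dbp, control 1, CUMS 1 and CUMS 2 were the 3 highest rats, and the same held for Hlf (1421, 1319.6 and 1645 in these rats, 773 to 1271 in the others). Against Arntl, Tef had r = −0.88 and Hlf r = −0.70 over the 9 rats, but among 23 genes of these lists tested in the same way 0 passed (lowest exact permutation adjusted p = 0.159).

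Of 14 liver genes known as clock outputs, 12 were kept and 0 passed in any comparison by limma, with at most 2 at an unadjusted p under 0.05 in a comparison (at most 1 by the study's test). The 2 were in CUMS 1–3 against CUMS 4–6, where 2.85% of all probe sets reached that level by limma. The 1 was in CUMS 4–6 against control, beside 5.33% of all probe sets by the study's test. The Usp2 signal, of a deubiquitinase driven by the clock in liver, was 914, 561 and 323 in control 1–3, 948, 2194 and 644 in CUMS 1–3, and 408, 638 and 637.5 in CUMS 4–6. CUMS 2 stood out, as it did for Per2, and the log2 difference of CUMS 1–3 from control was 1.004 (SE 0.45, adjusted p = 0.737 from limma). That difference was 0.51 without CUMS 2, the rat with the highest actin ratio, and 0.62 without control 3. The Noct signal, of a rhythmic phosphatase gene, was 221, 188 and 103 in control 1–3, 300.2, 339 and 116 in CUMS 1–3, and 44.1, 138 and 167 in CUMS 4–6. CUMS 4, whose actin ratio was also raised, was the lowest rat. CUMS 1–3 minus CUMS 4–6 gave a log2 difference of 1.18 for Noct (SE 0.54), which was 0.59 without CUMS 4, and of 0.60 (SE 0.26) for Por, the electron donor of liver cytochrome P450 enzymes, and Insig2, a regulator of sterol synthesis, stood 0.49 (SE 0.24) above control in CUMS 4–6.

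Genes of inputs to the liver clock were looked at from 3 lists. Of the 6 kept glucocorticoid-induced genes 0 passed by limma in any comparison, with at most 1 at an unadjusted p under 0.05 by either test. Among all probe sets, 2.85% to 7.93% reached that level in a comparison by limma and 4.08% to 7.7% by the study's test. Sgk1, a kinase gene, had a log2 difference of −0.54 (SE 0.18, adjusted p = 0.722 from limma) in CUMS 1–3 against control and lay wholly below the controls, where 6.32% of all probe sets did. Tsc22d3 (GILZ) and Fkbp5, both classic glucocorticoid targets, stood at 0.33 (SE 0.17) and 0.29 (SE 0.29) in that comparison by their brightest probe sets. Without CUMS 3 the Fkbp5 difference was −0.070. The other kept probe set of Fkbp5 gave −0.42 (SE 0.47), so the direction for Fkbp5 depended on the probe set. Of the 5 kept temperature-responsive genes 0 passed by limma, with at most 2 at an unadjusted p under 0.05 (at most 1 by the study's test). The 2 were with all CUMS rats against control, where 7.93% of all probe sets reached that level by limma. In CUMS 1–3 against control Hsph1, a heat shock protein gene, stood at 0.37 (SE 0.14, adjusted p = 0.733 from limma). The cold-induced genes Rbm3 and Cirbp stood at −0.65 (SE 0.34) and −0.17 (SE 0.16) there by their brightest probe sets. The other kept probe sets of Cirbp gave −0.55 (SE 0.19) and −0.0010 (SE 0.23). In the former all 6 CUMS rats (161 to 234) lay below the controls (270 to 319), beside 2.15% of all probe sets. It did not pass with all CUMS rats either (adjusted p = 0.496 from limma). The Rbm3 signal was 2672 in control 3 and 667 to 1085 in the other 8 rats, and without control 3 the Rbm3 difference was −0.20. Of the 6 kept genes of fasting and feeding 0 passed by limma and 0 reached an unadjusted p under 0.05 by either test, with Pdk4, Fasn and Angptl4 at −0.51 (SE 0.42), 0.25 (SE 0.44) and −0.19 (SE 0.50).

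Markers of other liver cells were summed in each rat beside these results. Over 11 of 11 stellate cell and fibroblast markers the sum was 8250 to 34446 in the controls, 4824 to 5638 in CUMS 1–3 and 6245 to 7910 in CUMS 4–6. Over 5 of 6 bile duct markers it was 978 to 9108 in the controls, the highest in control 3, and 678 to 1151 in the CUMS rats. Most of the sum of control 3 was the signal of Spp1, 7740 there. In the other controls Spp1 read 181 and 167, and in the CUMS rats 124 to 206. Krt7 and Cldn4, also in this sum, were too dim for the signal filter. Over 6 of 8 Kupffer cell and macrophage markers the ranges were 15198 to 18887, 11024 to 16600 and 11023 to 16142, and over 7 of 8 leukocyte markers 1072 to 2951, 981 to 1541 and 1233 to 1258. Over 6 of 7 endothelial markers the ranges were 13328 to 17915, 14651 to 16187 and 14866 to 16906. No marker signal was at the floor. The part of these cells in the low Nr1d1, Nr1d2 and Dbp signals of control 3 was not tested.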

How the data were processed

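Liver RNA of 9 rats was measured, 1 array per rat, and the rats were grouped by the symptom given in the labels. According to the labels and the study's methods, the authors isolated RNA by TRIzol, made biotin-labelled cRNA by in vitro transcription and normalized the arrays with MAS5. The deposited values are signal intensities on a linear scale, with a mean of 500.2 on each array without the lowest and highest 2% of values.

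Signals below 1 were set to 1 (586 values), the 57 control probe sets were removed, and log2 signals were fitted in R 4.3.3 with limma 3.58.1 (3 groups together, 6 residual degrees of freedom, variance trend), without the 40% of probe sets whose mean log2 signal was lowest (under 6.07). For counts of genes, the probe set with the highest mean stood for the gene. Correlations over rats were tested by exact permutation. The annotation named 1 gene for 20826 probe sets, several for 436 and none for 9780. The script was tested on simulated data.

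The clock genes and all gene lists were chosen with earlier results of these data known. Named were all 10 clock genes with all their probe sets. Of the further clock components and the liver outputs, genes past the test were to be named, otherwise the 4 of each list with the smallest p in any comparison. From other lists, at most 3 with the smallest p in CUMS 1–3 against control were named, along with the 5 genes most like and the 5 most opposite to Arntl. Alternatives were other scalings, another floor, other filters, other fits and tests, other probe sets, the replicate number as a block, and each rat left out in turn.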

Additional observations from a re-analysis of the deposited data

Results flagged for a closer look

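The Per3 signal of CUMS 4 lay far from those of the other stressed rats. Among the 6 CUMS rats, the gap between CUMS 4 (131) and the next rat, CUMS 3 (409.7), took up 0.649 of the whole range of the log2 signal, above Dixon's critical value of 0.625 for 6 samples. Per3 was 1 of 17 clock probe sets examined in this way, and chance flags about 1 in 20 groups. CUMS 4 also had a raised 3′ over 5′ ratio for beta-actin (4.96), as did CUMS 2 (5.23), whose Per3 signal was 695.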

How the results depend on the processing

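The count of clock genes called by limma stayed at 0 in all 4 comparisons under every alternative run: other scalings, log2 of the signal plus 50, no filter or a stricter one, only the groups compared, no variance trend, array weights, the study's test, the mean of all probe sets of a gene, and each rat left out in turn. Replicate numbers did not pair the rats (same-numbered control and CUMS 1–3 rats correlated at 0.0030, −0.049 and 0.14), and with the replicate number as a block 0 clock genes were called in CUMS 1–3 against control (lowest adjusted p = 0.517 from limma, 0.778 without the block), with 1361 in place of 1259 probe sets, and 1 in place of 0 clock genes, at an unadjusted p under 0.05. The number of genes correlated with Arntl was 3 as reported and 0 to 5 with 1 rat left out. It was 0 after quantile normalization (lowest exact permutation adjusted p = 0.0569). It was also 0 after centring on the median, added after the data were seen (lowest exact permutation adjusted p = 0.0535). With group means removed no count is given, since the permutation does not hold for such values. The median SD of the clock genes between rats of a group was 0.47 to 0.57 under alternatives added after the data were seen.

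The following values changed sign, and the cause was not tested; none of the differences between groups was called. In CUMS 1–3 against control, Clock was 0.012 after quantile normalization, 0.035 after centring on the median, 0.0065 with array weights and 0.17 with the mean of its probe sets, Per3 −0.30 with that mean (0.63 with its brightest probe set), and Nr1d1 −0.025 and Dbp −0.019 with array weights. In CUMS 4–6 against control, Nr1d2 was 0.012 after centring, Nr1d1 −0.13 with weights, and Clock −0.076 and Per2 0.013 with the mean of their probe sets. With all CUMS rats, Nr1d1 was −0.076 with weights and Per3 −0.40 with the mean of its probe sets. In CUMS 1–3 against CUMS 4–6, Cry1 was −0.0018 after quantile normalization and −4.4e-05 with weights, and Clock 0.25 with the mean of its probe sets, which also turned its correlation with Arntl from 0.80, which had passed, to −0.13. For Clock, Per2 and Per3 the mean of the probe sets took in a dim probe set that the filter had left out.

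With 1 rat left out, log2 differences crossed 0 as follows. In CUMS 1–3 against control the range was −0.26 to 0.35 for Arntl, −0.12 to 0.087 for Clock, −0.36 to 0.81 for Dbp, −0.33 to 0.38 for Nr1d1 and −0.21 to 0.52 for Per1. In CUMS 4–6 against control it was −1.11 to 0.066 for Dbp, −0.40 to 0.31 for Nr1d1, −0.21 to 0.089 for Nr1d2, −0.70 to 0.00081 for Per1, −0.39 to 0.23 for Per2 and −0.67 to 0.24 for Per3. With all CUMS rats it was −0.73 to 0.44 for Dbp, −0.12 to 0.25 for Npas2, −0.37 to 0.35 for Nr1d1, −0.073 to 0.22 for Nr1d2, −0.36 to 0.25 for Per1, −0.045 to 0.54 for Per2 and −0.12 to 0.43 for Per3. Between the stressed groups it was −0.23 to 0.36 for Cry1 and −0.15 to 0.24 for Nr1d1.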
